A study of Mus musculus with 9 samples.

Results

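The transcripts described here are 40 genes for nuclear receptors and the proteins that work with them, taken by symbol from a kidney RNA sequencing table of 23420 genes. All 40 were found in the table. Kidney cortex came from male C57/BL6 mice on a chow diet and a light and dark cycle. The fed group (5 mice) ate freely, and the fasted group (4 mice) went without food for 16 h before the kidneys were taken. Each library was made from a piece of about 50 mg from 1 mouse, and the labels name no transgene, deletion, batch, age or hour of collection. Libraries are called Fed 1 to Fed 5 and Fasted 1 to Fasted 4. The question asked of these genes is whether receptors for fatty acids, sterols and bile acids, and the coactivators they recruit, differ in transcript level after the fast.

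Nuclear receptors are transcription factors, many of which are switched on by a small fatty molecule that enters the cell. Many bind DNA as a pair with a retinoid X receptor, and with ligand in place they exchange corepressors such as NCOR1 for coactivators such as the NCOA proteins, the PGC-1 proteins and the mediator subunit MED1. In the proximal tubule, which burns fatty acids for most of its energy, PPAR alpha, the estrogen related receptors and HNF4 alpha are known regulators of metabolic genes. Ligand, and not only the amount of receptor, sets their activity, so a receptor's transcript and its activity need not move together.

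Levels below are normalized counts, which are reads divided by the authors' size factor for each library. A mean is given ± SD over 5 fed or 4 fasted mice. Changes are fasted over fed on the log2(normalized count + 1) scale with their standard error (SE). Adjusted p-values come from limma, with Benjamini-Hochberg adjustment over 15098 genes that had a mean of at least 10. Recovered reads per library lay between 18902645 and 32469467, so that 1 read was worth between 0.744 and 1.32 normalized counts. Fed 3 held 5.53% of its reads in the ribosomal RNA entry Rn45s and Fasted 1 held 2.36%, against 0.513% to 1.38% in the others. The 8 proximal tubule markers were all detected, with a summed level of 697414 to 1047605 in fed and 660407 to 875035 in fasted libraries. Of these, 0 rose and 1 fell, Slc34a1, with a median log2 change of -0.28 over the 8. In such bulk tissue, fewer cells of a type and less RNA per cell cannot be told apart.

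All 40 genes passed the filter on low values, down to Rxrg. Of these, 4 rose after the fast and 0 fell. Creb3l3 had by far the widest change, and Nr1h4, Hnf4g and Rora changed by less than 1.5-fold. The 4 calls make 10% of the genes, beside 11% of all genes tested (5.72% higher and 5.25% lower). The share called was near that of the whole table. DESeq2 on the recovered reads called 10 of the 40, 6 higher and 4 lower, beside 15.6% of all genes, and edgeR called the same number as limma, beside 11%. The median change of the 40 was -0.05 on the log2 scale, beside 0.00 for all genes. At an unadjusted p under 0.05, 14 of the 40 and 4052 of the 15098 genes passed. The fed and fasted libraries did not overlap in 5 of the 40 genes (Creb3l3, Nr1h4, Hnf4g, Nr1i3 and Ppard), beside 14.3% of all genes tested. Among the 36 that were not called, the 95% interval of the change stayed within 1.5-fold for 24 and within 2-fold for 31. The intervals of Ppard, Rxrg, Nr1i3, Nr4a1 and Nr4a2 reached past 2-fold, so a change of that size lies within what these data allow.

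**Figure D1:**
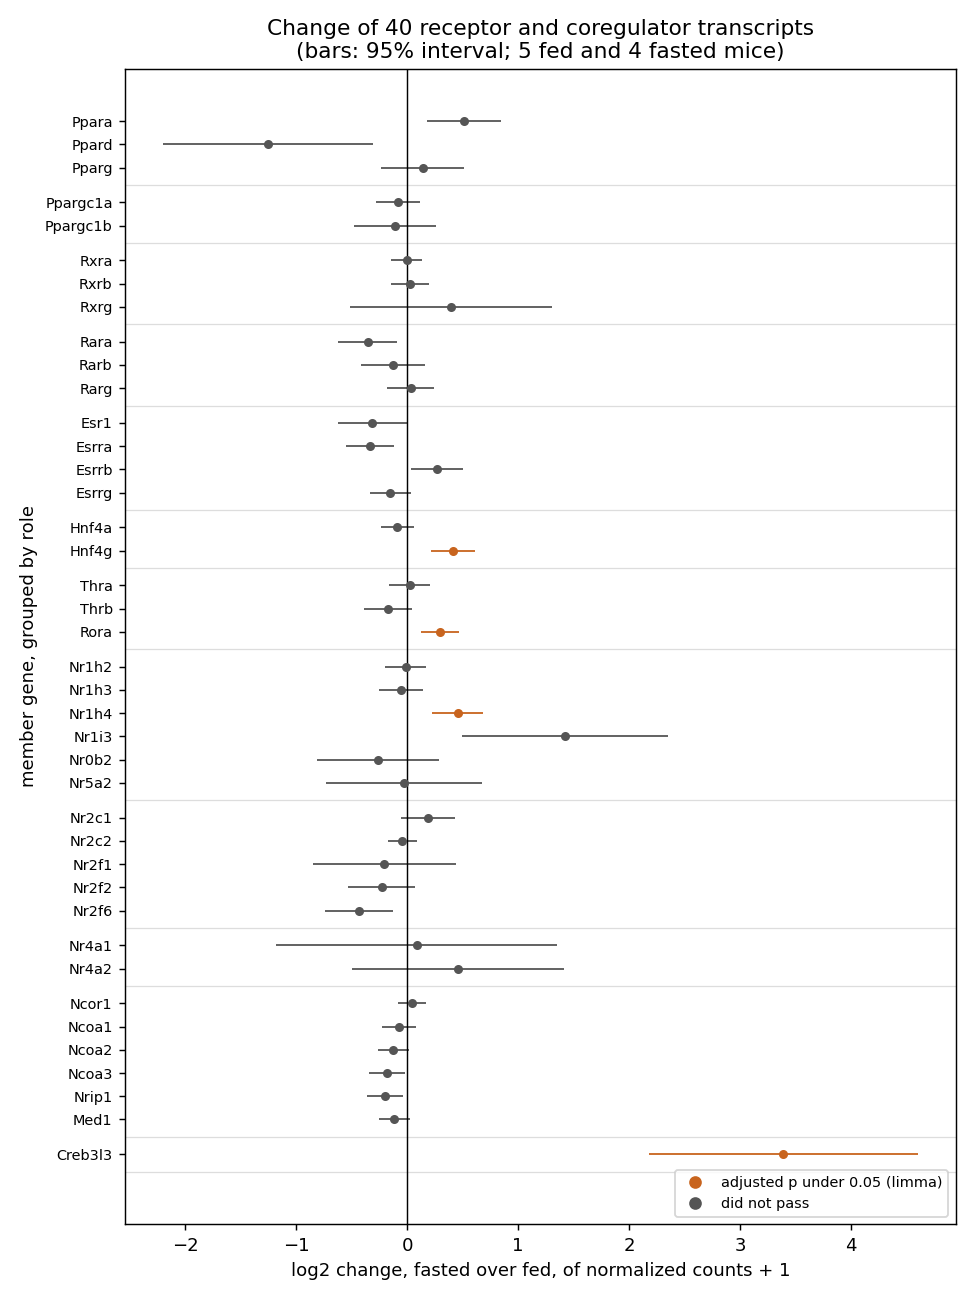
Change of each of the 40 transcripts, fasted over fed, on the log2(normalized count + 1) scale (horizontal axis), with its 95% interval, for 5 fed and 4 fasted mice and grouped by role. Creb3l3 stands alone at 3.39, 3 further genes in orange lie between 0.30 and 0.46, and most other points lie close to 0.

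Creb3l3 encodes a transcription factor held in the endoplasmic reticulum membrane. It is best known from liver and small intestine, where it is released by cleavage and acts together with PPAR alpha on genes of fasting. It is no nuclear receptor and stands among these genes as a partner of one. The gene lies at chr10:81084324-81098874 on the minus strand (ENSMUSG00000035041; GENCODE M21 on GRCm38, the source of all gene positions here). The 250 bases before the inner of its 2 RefSeq starts (RefSeq, GRCm38.p6, chr10:81092592-81092841, minus strand) are shown because this transcript changed most. The window of the other start held neither of the sequences marked here. Capitals mark the sequence TGACG, the shared part of the site for cyclic AMP response factors of the bZIP class, and AGGTCA, the core element that many nuclear receptors read. TGACG begins 239 bases and AGGTCA 202 bases before the start.

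Creb3l3: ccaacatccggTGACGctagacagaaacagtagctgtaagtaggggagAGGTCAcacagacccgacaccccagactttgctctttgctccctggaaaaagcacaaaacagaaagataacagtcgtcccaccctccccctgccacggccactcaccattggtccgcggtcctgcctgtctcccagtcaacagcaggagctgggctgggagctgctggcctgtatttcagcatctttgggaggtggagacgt

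The fed libraries held 2.98, 43.3, 18.4, 10.7 and 6.96 normalized counts of Creb3l3 in Fed 1 to Fed 5. Fasted 1 to Fasted 4 held 128, 166, 105 and 132. Every fasted library lay above every fed one. The mean was 16.5 ± 16.0 in fed and 133 ± 25.2 in fasted mice, a log2 change of 3.39 (SE 0.55, 95% interval 2.18 to 4.60, adjusted p = 0.00375, limma). This call was made in all 26 alternative fits, where the change lay between 2.73 and 3.84.

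Liver transcripts were present in these libraries at levels that differed between mice, and those values belong beside Creb3l3. Albumin (Alb), the main plasma protein made by the liver, was at 251, 10091, 4321, 2524 and 402 in Fed 1 to Fed 5 and at 3623, 1848, 7186 and 7396 in Fasted 1 to Fasted 4. In the fed group the libraries ranked for Creb3l3 exactly as they ranked for Alb, from Fed 2 down to Fed 1. In the fasted group they did not: Fasted 2 had the lowest Alb of its group and the highest Creb3l3. Fed 2 had more Alb than any fasted library and less Creb3l3 than all of them. With log2 Alb as a covariate the log2 change of Creb3l3 was 2.73 (adjusted p = 0.00203, limma). Of the 10 hepatocyte markers, none was at 0 in every library, 1 rose (Fga) and 0 fell, with a median log2 change of 1.23 over the 10. Their summed level was 2859 to 19961 in fed and 8727 to 16583 in fasted libraries. The part of liver transcripts in the level of Creb3l3 was not tested.

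**Figure D2:**
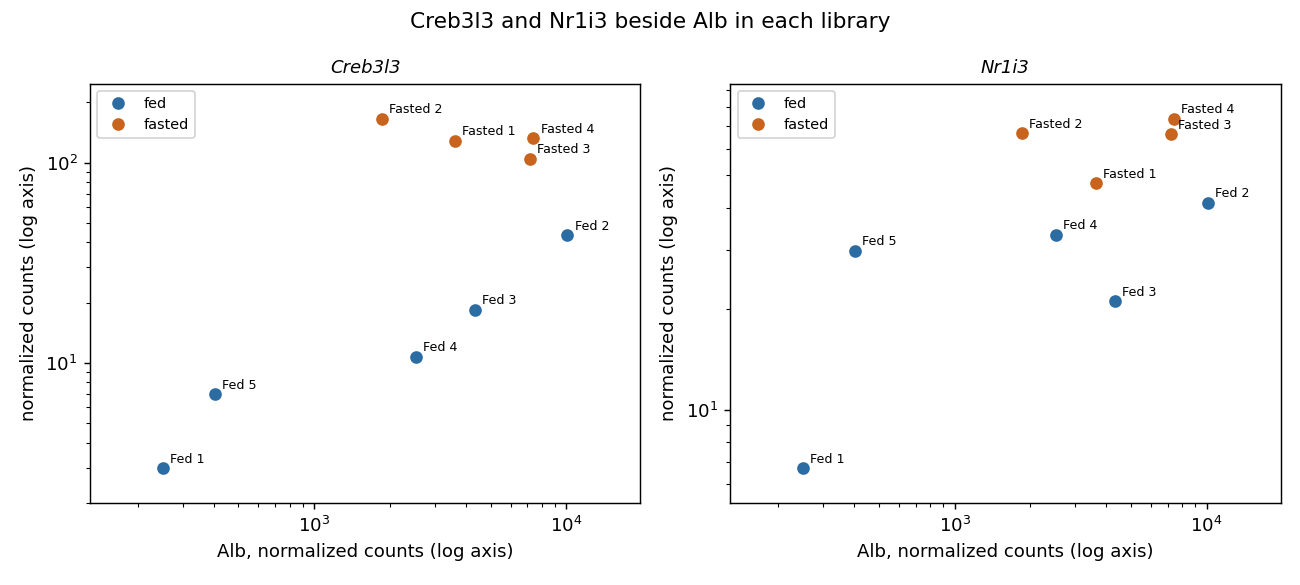
Creb3l3 (left) and Nr1i3 (right) against Alb in each library, all as normalized counts on log axes, with fed mice in blue and fasted mice in orange. Creb3l3 in the fed mice follows the order of Alb, whereas the 4 fasted mice lie at 105 to 166 at every level of Alb.

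Among the receptors for fatty acids, PPAR alpha is the one that drives fatty acid oxidation in fasting, PPAR delta is the widely expressed form, and PPAR gamma is the regulator of fat storage. None of the 3 transcripts passed the test. Ppara (chr15:85734983-85802819) was at 4458, 4489.6, 4828, 7667 and 5657 in Fed 1 to Fed 5 and at 7647, 6385, 7756 and 8646 in Fasted 1 to Fasted 4. Fed 4 was as high as the fasted mice, and the other fed libraries lay below all of them. The log2 difference was 0.51 (SE 0.15, 95% interval 0.18 to 0.85, adjusted p = 0.0554, limma). Without Fed 4 it was 0.65 and passed (adjusted p = 0.00557, limma), and without the other libraries in turn it did not.

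Fed 4 also stood apart in its clock genes. It had the least Arntl (202) and the most Dbp (1802) of all libraries, 2 transcripts that peak at opposite times of day. The difference of log2 Arntl minus log2 Dbp ran from -3.15 in Fed 4 to 3.75 in Fed 1 among fed mice and from -0.05 to 4.12 among fasted mice. Fed 5 had the next lowest value of the fed mice (-1.34). All fed libraries ranked for Ppara in exactly the reverse order of this difference, and Ppard was lowest in Fed 4 and Fed 5. Among the fasted mice the order for Ppara was not exactly reversed, as Fasted 1 had more Ppara than Fasted 2. With this difference as a covariate the change of Ppara was 0.62 (adjusted p = 0.00674, limma) and that of Ppard was -1.50 (adjusted p = 0.0253, limma). These alternatives alter the call of both genes, and the part of clock phase in either was not tested.

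Ppard (chr17:28232700-28301474) was at 755, 470.4, 1488, 265 and 275 in Fed 1 to Fed 5. Fasted 1 to Fasted 4 held 240.0, 206, 255 and 181. All fasted libraries lay below all fed ones, but Fed 4 and Fed 5 lay just above them and Fed 3 far above. The log2 difference was -1.25 (SE 0.43, adjusted p = 0.0888, limma). Leaving out Fed 4 or Fed 5 brought it under the threshold (adjusted p = 0.0465 and 0.0436, limma). Over all fits with 1 library left out, the log2 difference lay between -1.49 and -0.87, with an adjusted p as high as 0.207 (limma).

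Pparg was low, at 47.8 ± 9.83 in fed and 52.2 ± 4.27 in fasted mice (log2 difference 0.14, adjusted p = 0.636, limma). Of 6 adipocyte markers, Adipoq and Lep were at or near 0, with at most 2.79 normalized counts, and 2 had enough counts to be tested. Plin1, which coats fat droplets, was at 0.368 ± 0.823 in fed and 22.4 ± 32.4 in fasted mice (log2 change 3.24, adjusted p = 0.0266, limma). Its mean over all libraries was 10.2, and it reached the filter of 10 only through the fasted mice, mostly Fasted 2. Its call is therefore no independent evidence of a rise. It was at most 1.84 in the fed mice and at least 1.92 in the fasted ones, with 70.7 in Fasted 2. Cidec, another droplet protein, was at 8.39 ± 8.29 in fed and 32.7 ± 29.1 in fasted mice (log2 difference 1.78, adjusted p = 0.101, limma). The 6 markers summed to 7.44 to 26.9 in fed and 13.4 to 147 in fasted libraries, and the high value was that of Fasted 2. Pparg in Fasted 2 was 50.1, in the middle of its group. The part of these markers in the level of Pparg was not tested.

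Per kilobase of exon the summed PPAR level was 1516 ± 324 in fed and 2030 ± 242 in fasted mice. Ppara made up 92.8% ± 4.78 of this sum in fed and 97.7% ± 0.375 in fasted mice. In the test of the Ppara to Ppard ratio, which was 1 of 24 pairs of related members compared, the log2 ratio was 1.76 higher in fasted mice (exact permutation test over 126 arrangements, two-sided p = 0.0476, adjusted over the pairs 0.163). None of the 24 pairs passed after adjustment. The smallest p such a test can give is 0.00794, so 1 pair alone could not have passed over 24 pairs, whatever its ratio.

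**Figure D3:**
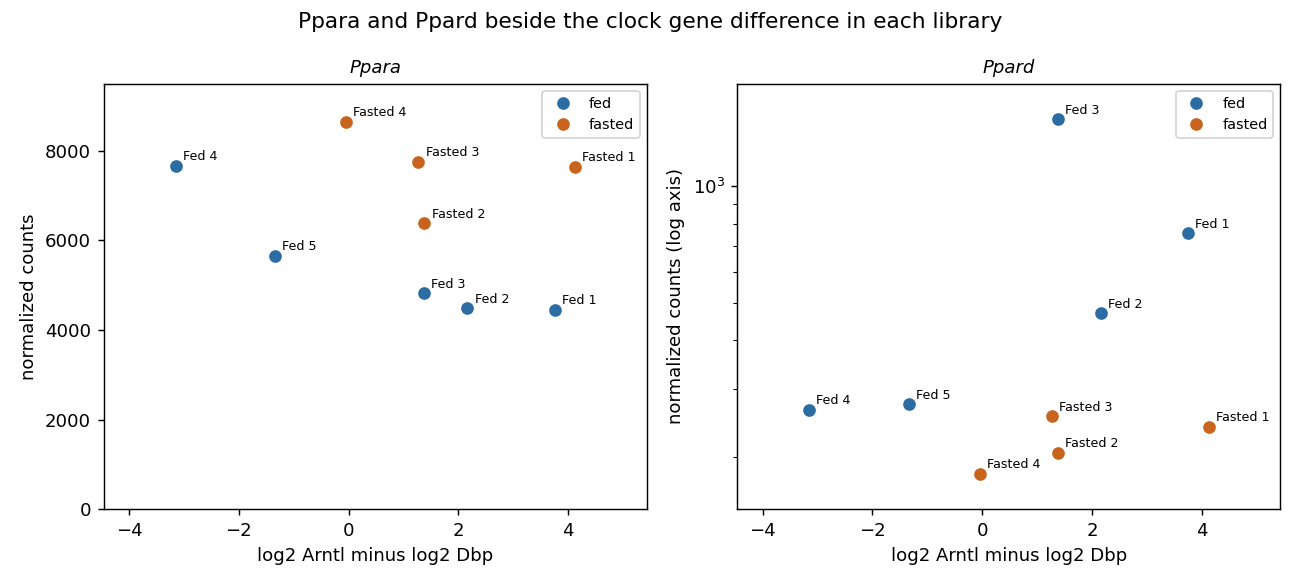
Ppara (left, normalized counts) and Ppard (right, normalized counts on a log axis) against the difference of log2 Arntl minus log2 Dbp in each library, with fed mice in blue and fasted mice in orange. Fed 4, at -3.15, has the highest Ppara of the fed mice, and Fed 1 to Fed 3 have the highest Ppard.

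Most of the listed transcripts that PPAR proteins are known to drive did change. Of 29 PPAR target genes tested, 26 rose and 0 fell, with a median log2 change of 1.61, beside 0.00 for all genes. Creb3l3 is 1 of those 26. The list was chosen with earlier results of these data known, so its count is a description and no independent test. Cpt2, which brings fatty acids into mitochondrial oxidation, rose by 1.13 on the log2 scale (SE 0.07, adjusted p = 1.55e-05, limma), Slc25a20, the carnitine carrier, by 1.57 (SE 0.09), and Acot2, a mitochondrial thioesterase, by 2.22 (SE 0.15). Fed 5 was the fed library with the highest Acot2 (1207, against 706 to 885 in the other fed mice). It was also far above the other fed mice in Cyp4a14 (15244 against at most 1379). Other targets were lowest in Fed 5 among the fed mice: Pdk4 (251, against 454 to 1121), Angptl4 (302, against 503 to 1115) and Txnip (3865, against 5945 to 11975). Cyp4a14 and these 3 targets were chosen after their values were seen. Creb3l3 in Fed 5 was 6.96, below the fed mean. Ppara in Fed 5 was 5657, within the range of the fed mice.

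The PGC-1 coactivators are coactivators of PPAR and estrogen related receptors and are known for their induction in fasted liver. Neither passed the test here. Ppargc1a (chr5:51454250-51567726) was at 3751, 4349.7, 5279, 4066 and 4508 in the fed libraries and at 4247, 3852, 4335 and 4080.4 in the fasted ones. The fasted values all lay inside the fed range. The log2 difference was -0.08 (95% interval -0.28 to 0.12, adjusted p = 0.613, limma). Ppargc1b, the related coactivator, was at 660.0 ± 157 in fed and 598 ± 55.5 in fasted mice (log2 difference -0.11, adjusted p = 0.72, limma).

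The estrogen related receptors act without a classical hormone and work with PGC-1 on mitochondrial genes. Esrra (chr19:6910977-6921813) was at 2965, 3002, 2570.4, 2854 and 2554 in the fed libraries. It was at 1988, 2734, 2159.9 and 2011 in the fasted ones. Fasted 2 lay among the fed mice and the other fasted mice below all of them. The log2 difference was -0.34 (SE 0.10, adjusted p = 0.0516, limma), and Esrra was called lower in 9 of 26 alternative fits. Without Fasted 2 it was -0.44 (adjusted p = 0.0096, limma), and it also passed without Fed 3 (0.0493) and without Fed 5 (0.0436). With another library left out, its adjusted p was as high as 0.156 (limma).

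Esrrb was at 923 ± 139.9 in fed and 1102 ± 65.8 in fasted mice, and Esrrg at 2933 ± 272 and 2639 ± 241 (adjusted p = 0.137 and 0.276, limma). Per kilobase the 3 receptors summed to 1261 ± 37.4 in fed and 1114 ± 40.8 in fasted mice, and the groups did not overlap in this sum (1224 to 1306 against 1067 to 1162). The sum was computed after the single values were known and carries no test. Of 25 genes tested on a list of PGC-1 and estrogen related receptor targets, 3 rose and 4 fell. That is 28%, beside 11% of all genes tested. Pdk4, the kinase that turns off pyruvate dehydrogenase, rose by 4.59 on the log2 scale (SE 0.31, adjusted p = 2.98e-05, limma) and Cpt1b, a carnitine palmitoyltransferase, by 1.07 (SE 0.22). Both are on the list of PPAR targets too and are already counted among the genes that rose there. Idh3a, a subunit of a citric acid cycle enzyme, fell by 0.37 on the log2 scale (SE 0.07, adjusted p = 0.00957, limma). The count of 7 was 11 without Fed 5 and 4 without Fasted 3 or Fasted 4. Esr1, the classical estrogen receptor, was at 562 ± 89.6 in fed and 453 ± 78.9 in fasted mice (adjusted p = 0.184, limma).

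**Figure D4:**
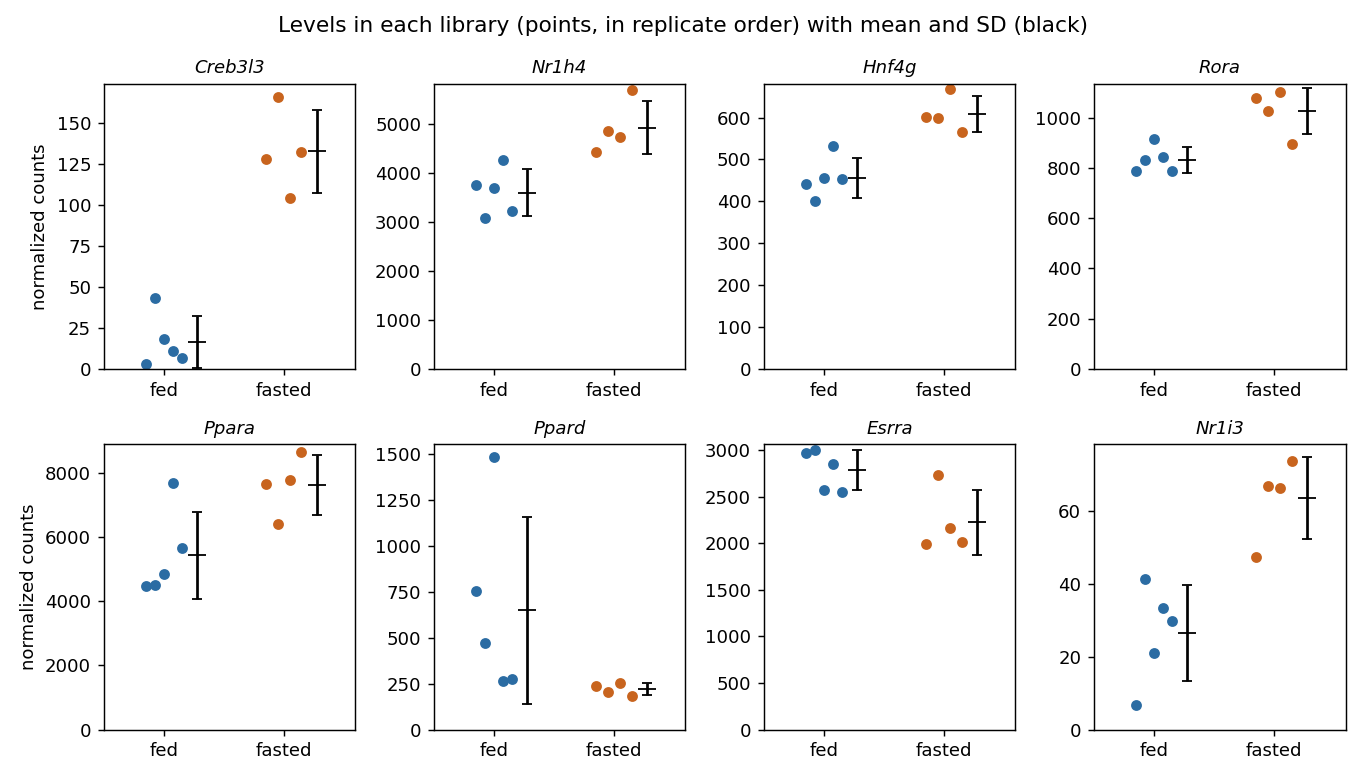
Normalized counts of 8 members in each fed (blue) and fasted (orange) library, with the mean and SD in black. Creb3l3, Nr1h4, Hnf4g, Ppard and Nr1i3 have no overlap between the groups, and the groups overlap through Fed 4 in Ppara, Fasted 4 in Rora and Fasted 2 in Esrra.

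The receptors for sterols and bile acids comprise the liver X receptors Nr1h2 and Nr1h3, which sense oxidized cholesterol, and the farnesoid X receptor Nr1h4, which senses bile acids. Nr1h4 (chr10:89454234-89533585, minus strand) rose, and neither liver X receptor passed the test. The 250 bases before the RefSeq start of Nr1h4 (GRCm38.p6, chr10:89506659-89506908, minus strand) are shown beside those of Creb3l3, as the only other called gene with a window that held that element (Rora has a window without it and Hnf4g has none). Capitals mark AGGTCA, read here on the opposite strand, 214 bases before the start.

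Nr1h4: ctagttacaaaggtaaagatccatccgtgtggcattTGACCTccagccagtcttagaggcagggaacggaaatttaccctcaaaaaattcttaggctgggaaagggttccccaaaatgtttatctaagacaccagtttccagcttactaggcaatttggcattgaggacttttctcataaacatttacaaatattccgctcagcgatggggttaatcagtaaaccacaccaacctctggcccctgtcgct

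Nr1h4 was at 3744, 3069, 3687, 4261 and 3209.7 in Fed 1 to Fed 5. It was at 4417, 4845, 4724 and 5683 in Fasted 1 to Fasted 4. Each fasted library lay above each fed one, with Fed 4 and Fasted 1 close together. The mean was 3594 ± 474 in fed and 4917 ± 541 in fasted mice, a log2 change of 0.46 (SE 0.10, adjusted p = 0.019, limma). Without Fasted 4 the change was 0.38 and did not pass (adjusted p = 0.063, limma), nor did it with Fed 1, Fed 2 and Fed 5 left out together (0.195). Of 10 tested genes known as targets of the receptor, 0 rose and 1 fell (10%, beside 11% of all genes tested). Their median log2 change was 0.25. In other fits 2 were called without Fed 5 and 0 without Fed 1, Fed 2 and Fed 5 together. The count takes no account of which targets the receptor raises and which it lowers. The gene that fell was Slc10a2, the bile acid carrier of the apical membrane. It fell by 1.14 on the log2 scale (SE 0.19, adjusted p = 0.00391, limma), from 1501 ± 185 to 703 ± 233. Nr0b2, the receptor without a DNA binding domain that is a known target of Nr1h4, was at 58.5 ± 16.96 in fed and 47.3 ± 10.1 in fasted mice (log2 difference -0.26, adjusted p = 0.543, limma).

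Nr1h2 was at 1300.0 ± 93.2 in fed and 1293 ± 138 in fasted mice, and Nr1h3 at 1144 ± 98.4 and 1103 ± 123. The 95% intervals of the log2 differences ran from -0.20 to 0.17 and from -0.25 to 0.14. Of 16 liver X receptor targets tested, with a median log2 change of 0.00, 0 rose and 3 fell (18.75%, beside 11% of all genes tested). These were Srebf1, the regulator of fatty acid synthesis (log2 change -1.24, SE 0.15), the desaturase Scd2 (-1.10, SE 0.20) and the fatty acid synthase Fasn (-0.49, SE 0.14, adjusted p = 0.0472, limma). Nr5a2, a receptor of bile acid and steroid synthesis, was low, at 24.1 ± 9.10 and 22.6 ± 5.48.

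Nr1i3, the constitutive androstane receptor, is a sensor of foreign compounds known mainly from liver. Its counts were low, at 6.70, 41.4, 21.0, 33.3 and 29.8 in the fed libraries and 47.4, 66.8, 66.2 and 73.8 in the fasted ones. The groups did not overlap, and Fed 1 was far below the rest. The log2 difference was 1.42 (SE 0.42, adjusted p = 0.0539, limma), and it was called higher in 8 of 25 alternative fits. Without Fed 1 it was 1.02 (adjusted p = 0.0305, limma), without Fed 2 it also passed (0.0424), and with log2 Alb as a covariate it was 1.04 (0.121). The value is uncertain in another way: 74.9% of the exon bases of Nr1i3 are shared with Tomm40l on the opposite strand, whose mean was 849 normalized counts. Use of strand in counting is not given in the sources used here, so reads of the 2 genes may not have been told apart.

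HNF4 alpha is a master regulator of proximal tubule and liver genes, and HNF4 gamma is its relative in gut and kidney. Hnf4a (chr2:163506808-163572910) was the most abundant of the 40 transcripts per kilobase, at 4910.2 ± 151 in fed mice, ahead of Nr1h4 (1561 ± 206) and Ppara (1413 ± 351). The last 2 of these did not differ from each other beyond their spread. Next in this order came Nr2f6 (1150.2 ± 198), Rxra (945 ± 59.3), Ncor1 (830.3 ± 20.7) and Ppargc1a (666 ± 87.1). At the other end lay Rxrg (3.83 ± 1.91), Nr5a2 (4.09 ± 1.54), Nr2f1 (5.40 ± 2.11) and Creb3l3 (5.46 ± 5.31), which overlapped one another. Creb3l3 reached 44.0 ± 8.36 per kilobase in fasted mice. Hnf4a did not pass the test, with 23706 ± 727 normalized counts in fed and 22345 ± 1243 in fasted mice (log2 difference -0.09, 95% interval -0.24 to 0.06). Hnf4g (chr3:3508030-3658052) was at 441, 401, 455, 533 and 453 in the fed libraries. It was at 601, 598, 668 and 565 in the fasted ones, all above the fed mice. The log2 change was 0.42 (SE 0.09, adjusted p = 0.0146, limma). It did not pass without Fed 3 and Fasted 1 together (adjusted p = 0.0519, limma) or without Fed 1, Fed 2 and Fed 5 together (0.192).

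The log2 ratio of Hnf4a to Hnf4g was 5.70 ± 0.145 in fed and 5.20 ± 0.109 in fasted mice (exact permutation test, two-sided p = 0.0159, adjusted over 24 pairs 0.143). Per kilobase, Hnf4a made up 96.6% ± 0.346 of the 2 in fed and 95.2% ± 0.331 in fasted mice. Of 15 genes listed as targets of HNF4 alpha in kidney, 0 rose and 2 fell (13.3%, beside 11% of all genes tested). These 2 were the scaffold Pdzk1 (log2 change -0.54, SE 0.14, adjusted p = 0.0337, limma) and the phosphate carrier Slc34a1 (-0.58, SE 0.16, adjusted p = 0.0377, limma). Slc34a1 is also the proximal tubule marker that fell. The count of called targets was 0 without any 1 of Fed 1, Fed 3, Fed 4, Fasted 1, Fasted 2 or Fasted 4. It was 1 without Fed 2 or Fasted 3 and 3 without Fed 5.

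Rora, a receptor of the clock and of lipid metabolism, is at chr9:68653786-69388246. Its level was 789.7, 830.3, 914, 845 and 789 in the fed libraries and 1079, 1028, 1104 and 897 in the fasted ones. Fasted 4 lay inside the fed range and the other fasted mice above it. The log2 change was 0.30 (SE 0.08, adjusted p = 0.0332, limma). It was the least stable of the 4 calls, made in 13 of 26 alternative fits. It was lost without Fed 1 (adjusted p = 0.0793), Fed 2 (0.0669), Fed 4 (0.0515), Fed 5 (0.0522), Fasted 1 (0.0924), Fasted 2 (0.0695) or Fasted 3 (0.0982, all limma). In these 7 fits the log2 change was 0.26 to 0.30. It was also lost with the difference of log2 Arntl minus log2 Dbp as a covariate (log2 change 0.29, adjusted p = 0.0526), with log2 Alb (0.27, adjusted p = 0.0906) and with 1 surrogate variable (0.28, adjusted p = 0.062, all limma).

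The thyroid hormone receptors Thra and Thrb did not pass the test (adjusted p = 0.897 and 0.287, limma), at 1202 ± 114 and 1836 ± 129 in fed and 1219.6 ± 106 and 1639 ± 227 in fasted mice. Klf9, a transcription factor, rose by 0.45 on the log2 scale (SE 0.11, adjusted p = 0.0284, limma). It was the only 1 of 10 thyroid hormone targets that was called (10%, beside 11% of all genes tested). This count was 0 without any 1 of Fed 1, Fasted 2, Fasted 3 or Fasted 4 and 2 without Fasted 1. The end of Thra shares 5.70% of its exon bases with Nr1d1 on the opposite strand.

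The retinoid X receptors are the common partners of PPAR, liver X, farnesoid X, retinoic acid and thyroid hormone receptors. Rxra (chr2:27676440-27762957) was at 5073, 5438, 4769.9, 5548 and 4979 in the fed libraries and 4812, 5345, 5146 and 5271 in the fasted ones. The fasted values lay within the fed range, and the log2 difference had a 95% interval of -0.15 to 0.14. Rxrb was at 924 ± 50.5 and 943 ± 90.05, and Rxrg was barely detected, at 8.80 ± 4.39 and 11.6 ± 5.04. Per kilobase the 3 summed to 1181 ± 60.6 in fed and 1184 ± 58.4 in fasted mice, of which Rxra was 80.0% ± 1.32 and 79.5% ± 1.49.

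Among the retinoic acid receptors, Rara had the widest difference, from 829.5 ± 133 to 646 ± 83.4 (-0.36, SE 0.12, adjusted p = 0.088, limma). Its fed libraries were at 694, 833, 1046, 752 and 823 and its fasted ones at 561, 703, 729.9 and 589. Fed 1 lay within the fasted range. Rarb and Rarg were at 489 ± 100.4 and 423 ± 49.4 in fed and 442 ± 34.2 and 432 ± 21.9 in fasted mice (adjusted p = 0.576 and 0.856, limma). The Rarb value is uncertain, since 34.1% of its exon bases lie opposite Top2b, which had a mean of 3890.02 normalized counts. None of 12 retinoic acid target genes passed limma's test, beside 11% of all genes tested, and 1 had an unadjusted p under 0.05.

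The NR2 receptors comprise the testicular receptors Nr2c1 and Nr2c2 and the COUP factors Nr2f1, Nr2f2 and Nr2f6, which mostly repress. Nr2f6 was at 4394, 3610.4, 3119, 3002 and 3029.7 in the fed libraries and 2278, 3268, 2467 and 2181 in the fasted ones. Fasted 2 lay among the fed mice and the other fasted mice below them, the same arrangement as in Esrra. The log2 difference was -0.43 (SE 0.14, adjusted p = 0.0714, limma), and without Fasted 2 it was -0.56 (0.0261). With another library left out, its adjusted p was as high as 0.199 (limma). Since 54.4% of its exon bases lie opposite Ocel1, this value is uncertain. Nr2f2 was at 2423 ± 495 and 2045 ± 244, Nr2c1 at 311 ± 36.5 and 354 ± 34.5, and Nr2c2 at 1799 ± 63.9 and 1748 ± 94.8, none of which passed. Nr2c2 shares 30.7% of its exon bases with Mrps25. Nr2f1 was low, at 27.5 ± 10.7 and 23.0 ± 6.49.

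The NR4A receptors act without a known hormone and are switched on as immediate early genes, within minutes of a stimulus. Their SD within a group was wider than the difference of the group means. The 250 bases before their RefSeq starts are shown because both held 4 copies of TGACG or its reverse complement CGTCA (capitals). Those of Nr4a1 are at chr15:101266596-101266845 (plus strand), 233, 213, 69 and 40 bases before the start. Those of Nr4a2 are at chr2:57124004-57124253 (minus strand, both GRCm38.p6), 200, 144, 123 and 111 bases before it.

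Nr4a1: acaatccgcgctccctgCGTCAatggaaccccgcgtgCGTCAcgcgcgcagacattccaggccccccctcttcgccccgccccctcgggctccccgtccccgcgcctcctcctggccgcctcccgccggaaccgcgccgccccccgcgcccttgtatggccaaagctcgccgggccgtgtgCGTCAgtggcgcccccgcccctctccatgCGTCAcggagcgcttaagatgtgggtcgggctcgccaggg

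Nr4a2: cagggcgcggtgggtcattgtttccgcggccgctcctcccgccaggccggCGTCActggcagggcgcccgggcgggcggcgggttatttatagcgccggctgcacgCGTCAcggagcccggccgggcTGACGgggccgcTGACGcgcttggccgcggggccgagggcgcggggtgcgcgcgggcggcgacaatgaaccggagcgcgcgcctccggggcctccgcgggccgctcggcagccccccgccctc

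Nr4a1 was at 1038, 1385, 2182, 1266 and 237 in Fed 1 to Fed 5 and at 474, 935, 1974 and 1387 in Fasted 1 to Fasted 4. Nr4a2 was at 55.8, 100.3, 121, 77.3 and 27.8 and at 47.4, 79.7, 158 and 129.8. The libraries ranked in the same order for both genes within each group, with Fed 5 lowest and Fed 3 highest among the fed and Fasted 1 lowest and Fasted 3 highest among the fasted. The log2 differences were 0.09 (SE 0.58) and 0.46 (SE 0.43), with adjusted p of 0.944 and 0.542 (limma). Of 9 immediate early genes on the marker list, only Atf3 ranked the libraries in that order in both groups. It ran from 48.7 in Fed 5 to 599 in Fed 3 and from 59.5 in Fasted 1 to 584 in Fasted 3. The order of the others differed in the fed group, the fasted group or both. Fos was at 160 in Fed 5, against 1098 to 1839 in the other fed mice. The 9 genes summed to 2600 to 20666 in fed and 6517 to 15615 in fasted libraries, and 0 of them rose or fell. Their part in the NR4A values was not tested.

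**Figure D5:**
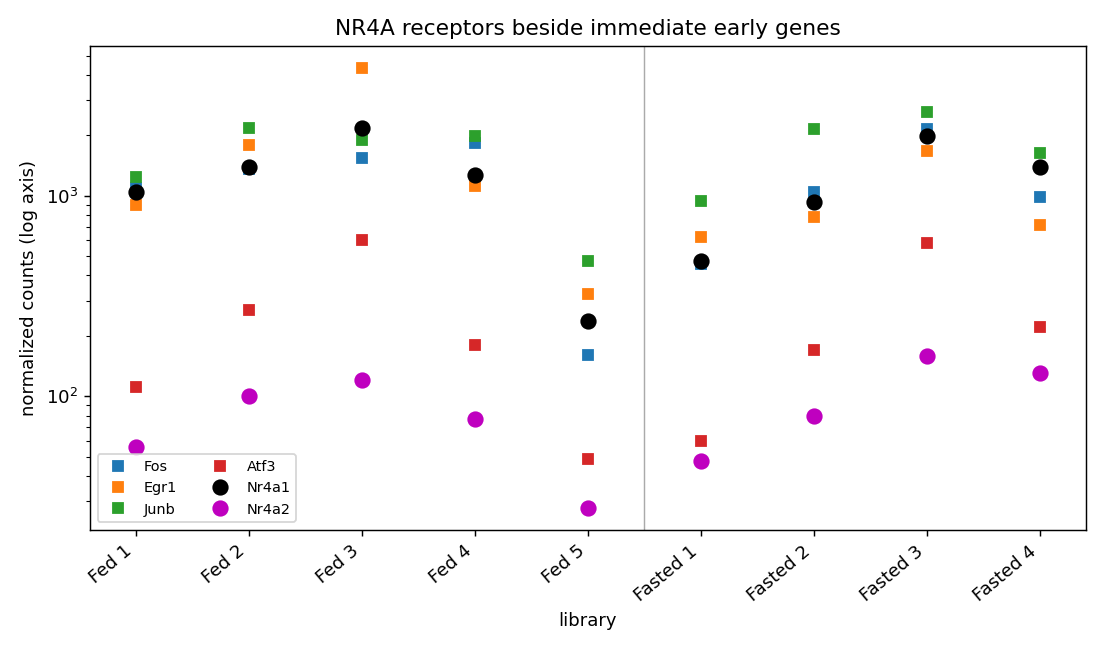
Normalized counts (log axis) of Nr4a1 and Nr4a2 (round points) and of the immediate early genes Fos, Egr1, Junb and Atf3 (squares) in each library, with fed mice left of the grey line. All 6 genes are lowest in Fed 5 among the fed mice, and both receptors are highest in Fed 3 and Fasted 3.

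The promoter windows were searched on both strands in the 250 bases before each RefSeq start. Windows were found for 35 of the 40 genes, and there was no entry for Ppargc1b, Hnf4g, Thra, Ncoa2 and Ncoa3. AGGTCA was present for 8 of the 35 (22.9%), beside 15.8% of 27025 genes. TGACG was present for 11 of the 35 (31.4%), beside 19.8%. A pair of AGGTCA spaced by 1 base, the site of PPAR with its partner, was in 0 of the 35 and in 0.0407% of all genes, and the full palindromic cyclic AMP site, which contains TGACG, was in 0 and 1.77%. A match describes letters in these windows only.

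The general coregulators comprise the corepressor Ncor1, the histone acetylating coactivators Ncoa1, Ncoa2 and Ncoa3, Nrip1, which represses fat and energy genes, and the mediator subunit Med1. None of the 6 passed. Ncor1 was at 10776, 10470.5, 10862, 10250.2 and 10824 in the fed libraries and at 11664, 10594, 10777 and 10891 in the fasted ones. Only Fasted 1 and Fasted 4 lay above the fed range. Its log2 difference was 0.05 (95% interval -0.08 to 0.17). Ncoa3 was at 4081, 4276, 4986, 4116 and 4311 in fed and at 3757, 3523, 4101 and 3927 in fasted libraries (-0.18, SE 0.07, adjusted p = 0.138, limma). Fasted 3 alone lay within the fed range.

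Nrip1 was at 1747 ± 148 and 1518 ± 82.8 (-0.20, SE 0.07, adjusted p = 0.108, limma). Ncoa1, Ncoa2 and Med1 differed by -0.08, -0.12 and -0.11, each with a 95% interval that reached 0. Per kilobase the NCOA coactivators summed to 1066 ± 69.7 in fed and 965 ± 58.9 in fasted mice. All 6 coregulators were highest in Fed 3 among the fed mice, and 5 of the 6 were lowest in Fasted 2 among the fasted ones. Over all 40 genes, 19 (47.5%) were highest in Fed 3 among the fed, beside 26.9% of all genes tested. Fed 3 is the library with the most Rn45s, and the part of that in these values was not tested.

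Beyond the 40, 12 other nuclear receptors had enough counts to be tested, of which 2 rose and 0 fell (16.7%, beside 11% of all genes). Among them was Nr1i2, the pregnane X receptor (log2 change 0.53, SE 0.14, adjusted p = 0.0367, limma). This count was 1 without any 1 of Fed 1, Fed 2, Fed 5, Fasted 2 or Fasted 4. Nr3c1, the glucocorticoid receptor, was at 4666 ± 531 in fed and 3915 ± 68.4 in fasted mice (-0.25, adjusted p = 0.0804, limma). Of 31 other coregulators, 1 rose (3.23%, beside 11% of all genes tested). This was Ncoa4, a coactivator also known as the receptor that delivers ferritin for breakdown (log2 change 0.57, SE 0.12, adjusted p = 0.0133, limma). The count was 2 without Fasted 3 and 3 without Fed 5. Of 17 genes that carry or make ligands for these receptors, 2 rose and 0 fell (11.8%, beside 11% of all genes tested). They were the fatty acid carrier Fabp4 (log2 change 0.67, SE 0.13, adjusted p = 0.00888, limma) and Cyp27a1, which makes 27-hydroxycholesterol, a ligand of the liver X receptors (0.37, SE 0.09, adjusted p = 0.0219, limma). That count was 4 without Fed 5 and 1 without Fasted 2, Fasted 3 or Fasted 4.

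The authors' deposited table called more of these genes. At its adjusted p under 0.05 it held 10 of the 39 members that carry such a value, 6 higher and 4 lower, beside 16.0% of all genes with one. All 4 genes called here were among them. The other 6 in the authors' deposited table were Ppara (adjusted p = 0.0207) and Nr1i3 (0.00727), both higher, and Ppard (0.0377), Esrra (0.0231), Nr2f6 (0.0297) and Rara (0.0458), all lower. At 0.01 the authors' deposited table held 5, beside 9.45% of all genes: Creb3l3, Hnf4g, Nr1h4, Rora and Nr1i3. Its log2 change for Creb3l3 was 0.90 (SE 0.21), closer to 0 than the change computed here from the deposited values. The same held for Ppard (-0.61) and Nr1i3 (0.75), for which DESeq2 on the recovered reads gave -1.56 and 1.27. The size of the authors' changes is therefore not on the same footing as the size of those computed here. In the authors' deposited annotation chart, 22 of 705 terms listed at least 1 of these genes and 8 of those had a Benjamini adjusted p under 0.05. The term with the highest fold enrichment among the 8 was steroid metabolic process (3.19-fold), which listed Nr1h4.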

How the data were processed

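The measurement is RNA sequencing of kidney cortex from 9 mice (5 fed, 4 fasted), with 1 library per mouse, per the labels. FastQC, TopHat2 2.0.9, HTSeq 0.9.1, DESeq2 (given as version 3.5) and the builds mm10 and hg19 are named per the submitters' processing notes. The annotation and the use of strand in counting are not given in the sources used here. The deposited signal per library is read counts divided by a size factor by the authors: all 161194 values above 0 were whole multiples of 1 step per library within 0.01 reads. The deposited log2 changes, their standard errors, the score and the p-values are the authors', and the deposited chart gives a fold enrichment with a p-value per annotation term.

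Changes were tested two-sided in limma 3.58.1 (R 4.3.3), with its trend option and a pseudocount of 1, keeping genes whose mean reached 10. P-values were adjusted over all these genes, at a threshold of 0.05. The steps were tested on simulated data. These data gave every gene the same variation between mice, so they say little about members that vary widely, such as Ppard and Nr4a1. The 40 members, all of which may be named, and the gene lists were chosen with earlier results of these data known. From each list, up to 3 genes with the smallest adjusted p are named, except that some are not reported here. Alternatives were pseudocounts 0.5 and 5, other filters (1, 50, none), TMM, upper quartile, voom with and without quality weights, no trend, edgeR (4.0.16) and DESeq2 (1.42.0) fitted to the recovered reads, covariates, 1 surrogate variable (sva 3.50.0), thresholds 0.01 and 0.1, and each library left out. Fits without Fed 3 and Fasted 1, and without Fed 1, Fed 2 and Fed 5, were added after seeing the data. Levels per kilobase used union exon lengths of GENCODE M21. Protein sequence features were not analysed here. No sample column stayed unused (0).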

Additional observations from a re-analysis of the deposited data

Results flagged for a closer look

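Each of the 40 genes was searched for a library far from the rest of its group, in 80 groups of 4 or 5 libraries, and 3 were found; chance gives about 1 in 20 groups. Pparg was 58.5 normalized counts in Fasted 3, against 49.3 to 50.7 in the other fasted mice. Esrrg was 3407 in Fed 3, against 2749 to 2906 in the other fed mice. Ncoa3 was 4986 in Fed 3, against 4081 to 4311 in the other fed mice.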

How the results depend on the processing

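Creb3l3 was called higher in all 26 alternatives, Hnf4g and Nr1h4 in 24 each and Rora in 13. The count of changed members, 4 in the reported fit, was 10 with DESeq2 (4 lower), 11 with voom and quality weights (7 higher, 4 lower), 7 with the clock covariate (2 lower), 10 at an adjusted p under 0.1 (4 lower) and 1 at 0.01 (1 higher). It was 2, all 2 higher, without Fed 3 and Fasted 1, and likewise 2 without Fed 1, Fed 2 and Fed 5. One fallen member was called with TMM, upper quartile factors, voom or a mean of at least 50 (1 each, Esrra). With 1 library left out, 3 to 5 members changed, of which 3 to 4 were higher and 0 to 2 lower. The cause of these shifts was not tested. Among the 36 members not called, 11 changed sign in some alternatives (40 values, none past the threshold, lowest adjusted p 0.484). With 1 library left out, the log2 difference ranged from -0.032 to 0.028 for Rxra, -0.033 to 0.076 for Rxrb, -0.026 to 0.068 for Rarg, -0.035 to 0.071 for Thra, -0.059 to 0.052 for Nr1h2, -0.12 to 0.016 for Nr1h3, -0.26 to 0.10 for Nr5a2 and -0.43 to 0.47 for Nr4a1. The clock covariate gave 0.014 for Rxra, 0.021 for Nr1h2 and 0.045 for Nr5a2. Voom gave 0.052 for Nr5a2, and with quality weights 0.090 for Nr5a2 and -0.055 for Nr4a1. For Nr4a1, edgeR gave -0.030, DESeq2 -0.034, the Alb covariate -0.43 and 1 surrogate variable -0.30. Without Fed 3 and Fasted 1, Ppargc1b was 0.024 and Nr1h2 0.023. Without Fed 1, Fed 2 and Fed 5, Rxrb was -0.032, Rarb 0.037, Thra -0.020, Nr1h3 0.049, Nr4a1 -0.66 and Nr4a2 -0.041. No paired analysis was possible because the labels give no number shared between fed and fasted mice. Over all genes, the count called lay between 538 and 2702. Depth limits the members with few reads (Rxrg, Nr5a2, Nr2f1, Nr1i3 and, in fed mice, Creb3l3), and the number of mice limits all of them.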
